A study of Mus musculus with 12 samples.

Results

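Cd44 and Gpc1, genes of 2 proteoglycans of the cell surface, were examined among the 420 genes of a targeted RNA panel for the extracellular matrix and cell adhesion. Both were taken by name from the normalized count tables and compared over the 4 groups of genotype and TGF-β1. The cells were pancreatic stellate cells (PSCs), the fibroblast-like cells of the pancreas that become matrix-producing myofibroblasts when activated. They came from the pancreas of 1 male Rosa26CreERT2 PKN2 fl/fl mouse, background strain C57BL/6, and were immortalized with SV40 large T antigen, so the groups are cultures of cells from a single animal. PKN2, a protein kinase, was deleted in culture with 4-hydroxytamoxifen, which switches on the Cre recombinase, and whether the WT cells were also exposed to it is not given in the sources used here. The groups were WT and PKN2 KO, each with vehicle or with TGF-β1 at 5 ng/ml, RNA was taken after 72 h, and each group had 3 libraries lettered A, B and C. The submitters' design text speaks of several lines of each genotype and the study counts its in vitro n as biological replicates, whereas its methods describe cells from a single mouse. Those methods give a minimum of 3 dishes of WT cells and 4 of PKN2 KO cells in each condition. How the dishes were assigned to libraries A, B and C is not given in the sources used here. The spread behind the p-values may therefore be technical.

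CD44 is the main receptor for hyaluronan, and it also binds osteopontin, fibronectin and collagens and serves as a docking site for matrix proteases. It becomes a proteoglycan when glycosaminoglycan chains are added, which depends on the splice form. Glypican-1, the product of Gpc1, is anchored to the outer membrane by a lipid and carries heparan sulfate chains, through which it holds growth factors near their receptors. Both are known from activated stroma and from tumor cells in pancreatic cancer.

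Cd44 (ENSMUSG00000005087) lies on the minus strand of chromosome 2 at 102811141 to 102901665, and Gpc1 (ENSMUSG00000034220) on the plus strand of chromosome 1 at 92831645 to 92860779 (GRCm38, GENCODE M21). Glycosaminoglycan chains are attached at serines that are followed by glycine, and heparan sulfate is favored where such pairs stand next to each other. A stretch of 20 codons with such adjacent pairs is shown for each gene, in Cd44 from the transcript that holds them. The letters are coding bases of the GENCODE M21 transcripts, 5′ to 3′ on the coding strand, and the capitals mark the serine-glycine codons.
Gpc1-201, codons 482 to 501, exon 9 of 9, chr1:92858334-92858393, plus strand: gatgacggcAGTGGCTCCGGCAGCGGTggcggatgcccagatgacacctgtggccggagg
Cd44-201, codons 328 to 347, exon 8 of 19, chr2:102845286-102845345, minus strand: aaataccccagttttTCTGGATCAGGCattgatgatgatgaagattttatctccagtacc

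The Gpc1 stretch holds 3 pairs in a row, with the serines at codons 485, 487 and 489, and it is in the only protein-coding transcript of the gene. The Cd44 stretch holds 2 pairs in a row, with the serines at codons 333 and 335, and it is in 1 of the 8 protein-coding transcripts. That exon is the alternatively spliced v3 exon, known as the heparan sulfate-bearing form of CD44, and the other 7 transcripts hold 3 or 4 separate pairs and no adjacent ones. The panel gave 1 count per gene, so every Cd44 value below covers all splice forms together and does not tell how much of it carried this exon.

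The libraries held 1074095 to 1473153 panel reads, with 6960 to 18313 reads of Cd44 and 127 to 483 of Gpc1. The scatter that read counting alone gives at the lowest count was 8.87% for Gpc1 and 1.20% for Cd44. The 4 B libraries had the lowest normalized value per read in every group. Summed markers of epithelial, endothelial and leukocyte cells reached at most 21.9, 21.9 and 39.2 normalized counts per library, against at least 150327 for 6 fibroblast or stellate genes, of which Col1a1, Col1a2, Col3a1 and Postn were high. The other two defining stromal genes were scarce, with Lum at 5 reads or fewer and Dcn at a mean of 21.5 normalized counts in WT vehicle and 0.98 in WT with TGF-β1. The panel has no Pkn2 entry, and these libraries therefore give no check of its deletion.

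To ask whether loss of PKN2 was accompanied by a change in Cd44, the vehicle libraries were compared first. Cd44 differed little between the genotypes, whereas TGF-β1 raised it close to 2-fold in WT and in PKN2 KO PSCs with the authors' factors. In WT vehicle, the normalized counts of Cd44 were 8356 in A, 8513 in B and 7556 in C. In PKN2 KO vehicle they were 8157 in A, 7832 in B and 9057 in C. The ranges overlapped, with the lowest value in a WT library and the highest in a PKN2 KO library. The means were 8142 ± 513 (SD, n = 3) and 8349 ± 635 (SD, n = 3), and the log2 difference was 0.036 ± 0.20 (SE) with an adjusted p of 0.92 by limma. Its 95% interval, -0.39 to 0.46, reached from 0.76-fold to 1.38-fold. In RNA from whole cultures, fewer expressing cells and less RNA per cell cannot be told apart. Here 13.9% of the 238 genes tested passed the threshold of 0.05 in either direction.

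After TGF-β1, the normalized counts of Cd44 were 17524 in A, 13478 in B and 17596 in C of WT. In PKN2 KO with TGF-β1 they were 18697 in A, 12807 in B and 16280 in C. The B library was the lowest of its group in both genotypes, and the ranges again overlapped. The means were 16200 ± 2357 (SD, n = 3) and 15928 ± 2961 (SD, n = 3), with a log2 difference of -0.031 ± 0.20 (SE), a 95% interval of -0.46 to 0.40 and an adjusted p of 0.95 (limma). In this comparison 15.1% of the genes tested passed. No direction can be given for Cd44 between genotypes, since the sign in vehicle turned under each of the 4 other scalings, as well as without WT vehicle C (-0.017) or PKN2 KO vehicle C (-0.025). The sign after TGF-β1 turned without WT A (0.031), WT C (0.034) or PKN2 KO B (0.12) of the treated libraries.

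TGF-β1 raised Cd44 in both genotypes, and every treated library lay above every vehicle library. In WT the log2 difference was 0.98 ± 0.20 (SE), which is 1.98-fold with a 95% interval of 1.47 to 2.66, at an adjusted p of 0.00067 (limma). Of all genes tested, 23.9% rose in WT, 26.9% fell and 55.9% had groups that did not overlap. In PKN2 KO the log2 difference was 0.92 ± 0.20 (SE), which is 1.89-fold with an interval of 1.40 to 2.54, at an adjusted p of 0.0015 (limma). There 19.7% of the genes rose, 29.0% fell and 52.9% had groups that did not overlap. The response of Cd44 did not differ detectably between the genotypes, with an interaction of -0.066 ± 0.28 (SE, log2), a 95% interval of -0.67 to 0.54 and an adjusted p of 0.96 (limma). Of all genes, 3.36% had an interaction past the threshold.

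**Figure D1:**
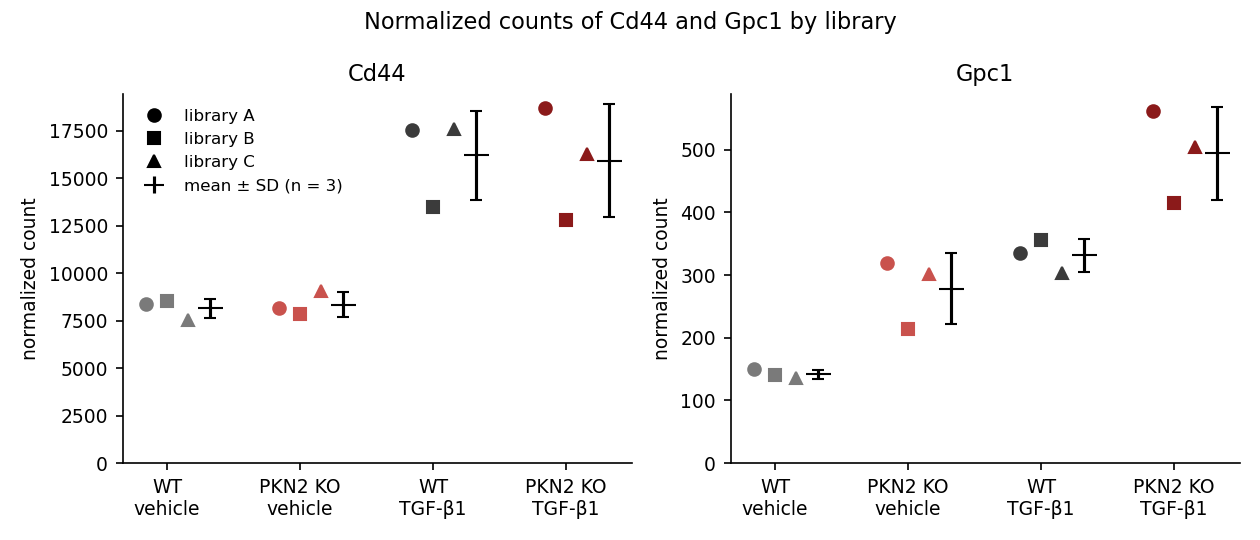
Normalized counts (vertical axes, from 0) of Cd44 and Gpc1 in the 12 libraries by group, with 1 symbol per library and the mean ± SD (n = 3) beside them. The Cd44 values split by TGF-β1 alone, from 7556 to 9057 in vehicle and from 12807 to 18697 after TGF-β1. The Gpc1 values of PKN2 KO lie above those of WT within each treatment. After TGF-β1 that difference missed the threshold (adjusted p = 0.057, limma).

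In vehicle, PKN2 KO PSCs had more Gpc1 than WT PSCs, and TGF-β1 raised Gpc1 in both genotypes. In WT vehicle the normalized counts of Gpc1 were 150 in A, 140 in B and 135 in C. In PKN2 KO vehicle they were 320 in A, 213 in B and 302 in C. The groups did not overlap, as the lowest PKN2 KO library, B, was above the highest WT library. The means were 142 ± 7.55 (SD, n = 3) and 278 ± 57.1 (SD, n = 3). The log2 difference of 0.95 ± 0.19 (SE), which is 1.93-fold with a 95% interval of 1.46 to 2.56, had an adjusted p of 0.0038 (limma). In this comparison 10.9% of the genes were higher in PKN2 KO, 2.94% were lower and 32.4% had groups that did not overlap. Gpc1 was part of a signature of PKN2 loss that the study chose with these libraries, so this difference is no independent evidence of its direction.

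With TGF-β1 the normalized counts of Gpc1 were 335 in A, 356 in B and 304 in C of WT. They were 562 in A, 415 in B and 504 in C of PKN2 KO. The groups did not overlap here either, which held for 28.2% of the genes tested. The means were 331 ± 26.2 (SD, n = 3) and 494 ± 74.0 (SD, n = 3), a log2 difference of 0.57 ± 0.19 (SE), or 1.48-fold with a 95% interval of 1.12 to 1.96. Its adjusted p of 0.057 (limma) missed the threshold, which 8.82% of the genes passed in this direction and 6.30% in the other. The call depended on the analysis, as the adjusted p was 0.054 with edgeR's quasi-likelihood test, 0.025 with the DESeq2 Wald test, 0.031 by limma with TMM scaling, and 0.030 by limma without PKN2 KO B. Of 16 alternatives other than leaving out single libraries, 7 passed. Among these were the fits with the letter as a block and a fit without the B libraries, chosen after seeing the data. Leaving out single libraries, without the block, 1 of 6 fits passed, with adjusted p up to 0.21 (limma).

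TGF-β1 raised Gpc1 2.33-fold in WT, with a 95% interval of 1.76 to 3.08 and an adjusted p of 6.5e-05 (limma). In PKN2 KO the rise was 1.78-fold, with an interval of 1.35 to 2.36 and an adjusted p of 0.0019 (limma). Each treated library was above each vehicle library of its genotype. These rises were 1.22 ± 0.19 and 0.84 ± 0.19 (SE) on the log2 scale. The smaller rise in PKN2 KO did not differ from that in WT beyond the error, with an interaction of -0.38 ± 0.27 (SE, log2), a 95% interval of -0.96 to 0.19 and an adjusted p of 0.63 (limma). Ordered by level, Gpc1 was lowest in WT vehicle, followed by PKN2 KO vehicle, WT with TGF-β1 and PKN2 KO with TGF-β1. PKN2 KO vehicle and WT with TGF-β1 overlapped, as PKN2 KO vehicle A (320) was above WT TGF-β1 C (304), and the other neighbors in this order did not overlap.

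**Figure D2:**
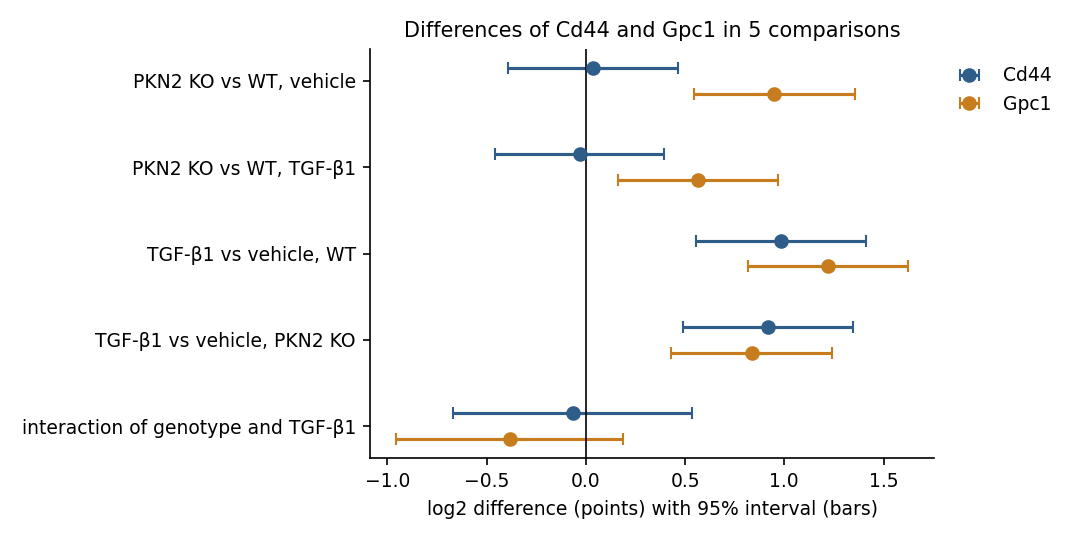
Log2 differences (horizontal axis, points) with 95% intervals (bars) from limma for Cd44 and Gpc1 in the 5 comparisons. The intervals of both genes are above 0 for TGF-β1 in both genotypes, those of Cd44 cover 0 between genotypes, those of Gpc1 do not, and both interactions cover 0. The intervals are not adjusted for the number of genes, and Gpc1 between genotypes after TGF-β1 missed the threshold (adjusted p = 0.057, limma).

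The genotype differences were read against the panel as a whole, because the median gene was itself higher in PKN2 KO with the authors' factors, by 0.21 in vehicle and 0.13 after TGF-β1 on the log2 scale. Relative to that median, Gpc1 was 0.74 higher in vehicle and 0.44 higher after TGF-β1, and Cd44 was 0.17 and 0.16 lower. Counted from the most increased gene, Gpc1 ranked 36 of 238 in vehicle and 51 after TGF-β1 between genotypes, and Cd44 ranked 157 and 151. For TGF-β1 against vehicle, Gpc1 ranked 37 in WT and 41 in PKN2 KO, and Cd44 ranked 45 and 36. The median gene moved by less than 0.001 with TGF-β1 in WT and by -0.14 in PKN2 KO. The genotype comparisons share no libraries with each other, but each shares libraries with both TGF-β1 comparisons.

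**Figure D3:**
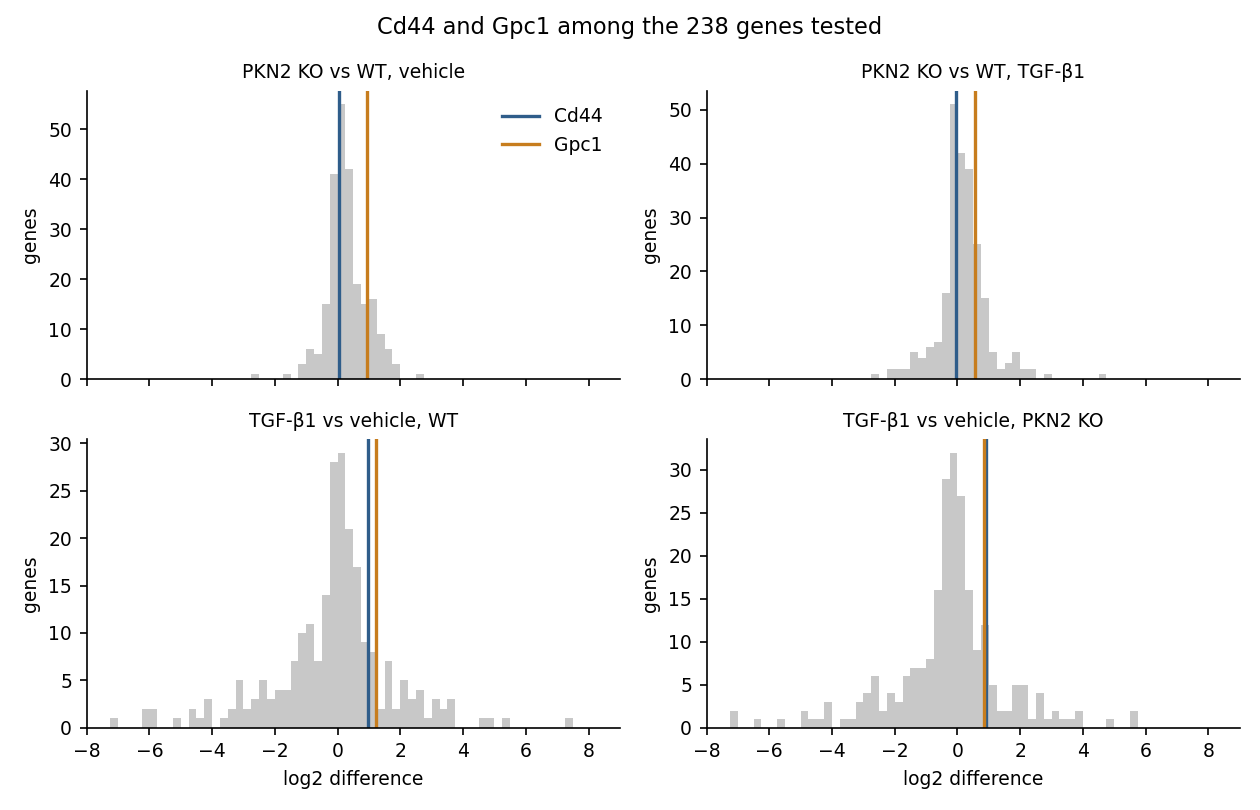
Histograms of the log2 differences of the 238 genes tested (horizontal axes, bins of 0.25; vertical axes, number of genes) in 4 comparisons, with Cd44 and Gpc1 as lines. Cd44 lies near the middle between genotypes and with the increased genes for TGF-β1, where the lines of both genes are almost on top of each other in PKN2 KO.

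Dividing the reads of Gpc1 by those of Cd44 in the same library removes the scaling factor. In WT vehicle the log2 ratio was -5.80 in A, -5.93 in B and -5.81 in C, and in PKN2 KO vehicle it was -4.67 in A, -5.20 in B and -4.91 in C. After TGF-β1 it was -5.71 in A, -5.24 in B and -5.86 in C of WT, and -5.06 in A, -4.95 in B and -5.01 in C of PKN2 KO. All 6 PKN2 KO libraries were above all 6 WT libraries. The closest were PKN2 KO vehicle B at -5.20 and WT TGF-β1 B at -5.24. The means were -5.84 ± 0.072, -4.93 ± 0.26, -5.60 ± 0.32 and -5.01 ± 0.055 (SD, n = 3) in the groups in this order. The ratio was chosen after the values were seen and is given as a description. How many other genes separate the genotypes by such a ratio was not counted. For the normalized counts of single genes, 32.4% in vehicle and 28.2% after TGF-β1 had genotype groups that did not overlap.

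**Figure D4:**
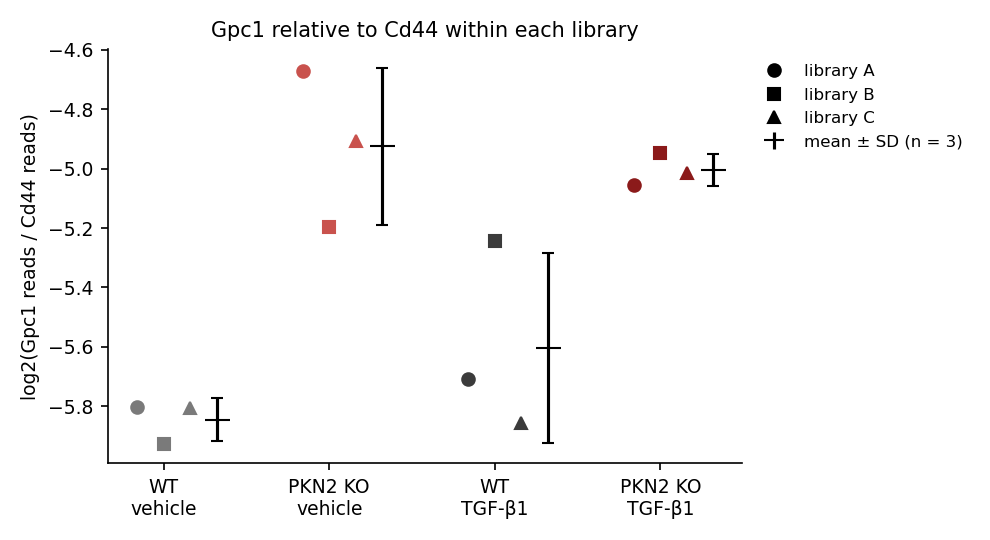
Log2 of Gpc1 reads over Cd44 reads (vertical axis) in each of the 12 libraries by group, with the mean ± SD (n = 3). The PKN2 KO libraries sit from -5.20 to -4.67 and the WT libraries from -5.93 to -5.24.

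The panel holds 3 other glypicans. Gpc4 had normalized counts of 1924 in A, 1055 in B and 1528 in C of WT vehicle, and of 1466, 1205 and 1443 in PKN2 KO vehicle. After TGF-β1 it had 1659, 982 and 1264 in WT, and 1461, 888 and 1122 in PKN2 KO. The 4 groups overlapped, and Gpc4 passed in no comparison, with log2 differences of -0.094 ± 0.26 (SE) between genotypes in vehicle and -0.20 ± 0.26 for TGF-β1 in WT. By limma, 2 of the 4 other scalings called Gpc4 lower with TGF-β1 in each genotype. Gpc3 had 1 read in 1 of the 12 libraries and Gpc5 had none, so neither was tested.

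Of 9 genes for hyaluronan-binding proteins on the panel, 2 had enough reads to be tested, Cd44 itself and Vcan, which encodes the large matrix proteoglycan versican. Neither passed between genotypes. With TGF-β1, Vcan rose 1.65-fold in WT (adjusted p = 0.013, limma), and its log2 difference was 0.18 ± 0.22 (SE) in PKN2 KO, with an interaction of -0.54 ± 0.31 (SE) that did not pass (adjusted p = 0.57, limma). Of 7 other ligands of CD44, 6 were tested and none passed between genotypes. Of all genes, 13.9% passed between genotypes in vehicle and 15.1% after TGF-β1. The absence of calls among so few genes is therefore no result about either list. With TGF-β1, Spp1 (osteopontin) and Lgals9 (galectin-9) fell in both genotypes, where 26.9% and 29.0% of all genes fell. Spp1 fell by 1.13 ± 0.27 (SE, log2) in WT and by 0.88 ± 0.27 in PKN2 KO. Selp (P-selectin) was called higher with TGF-β1, but it was tested only through its 10 to 15 reads in the treated libraries, against 2 reads or fewer in vehicle, so the call is no result.

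Of the 4 proteases that cleave CD44 or dock on it, Adam10 and Adam17, which release its outer part, passed in no comparison. Mmp14, a membrane-anchored matrix metalloproteinase, rose with TGF-β1 2.04-fold in WT (adjusted p = 0.011, limma) and 1.74-fold in PKN2 KO (adjusted p = 0.044, limma). Mmp9, a secreted gelatinase that binds CD44, had 2 reads or fewer in every vehicle library. After TGF-β1 it had 148.6 to 284 normalized counts in WT and 21.9 to 45.2 in PKN2 KO, a log2 difference between genotypes of -2.74 ± 0.51 (SE, adjusted p = 0.0015, limma). Cd44 itself had a log2 difference of -0.031 in the same libraries.

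The secreted heparan sulfate proteoglycans with enough reads were Hspg2 (perlecan) and Col18a1 (collagen XVIII), 2 of 5 on the panel. Neither passed between genotypes, with log2 differences in vehicle of 0.76 ± 0.30 (SE) for Hspg2 and 1.28 ± 0.41 for Col18a1, which had an adjusted p of 0.051 (limma). Col18a1 rose with TGF-β1 8.79-fold in WT (adjusted p = 1.2e-05, limma) and 5.67-fold in PKN2 KO, and Hspg2 passed in neither genotype. Of 12 genes for proteins that bind heparin or heparan sulfate, 10 were tested, among them Fn1 (fibronectin), which is also one of the CD44 ligands above. In vehicle 2 were higher in PKN2 KO and none lower, where 10.9% and 2.94% of all genes were. After TGF-β1 2 were higher and 2 lower, against 8.82% and 6.30% of all genes. The median log2 difference of the 10 was 0.41 in vehicle and 0.27 after TGF-β1, against 0.21 and 0.13 for all genes. With TGF-β1, 5 of them rose and 1 fell in WT, where 23.9% and 26.9% of all genes did. In PKN2 KO 2 rose and 2 fell, where 19.7% and 29.0% of all genes did.

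Prelp, a leucine-rich matrix protein that binds heparin and collagen, had means of 947 ± 345 (SD, n = 3) in WT vehicle and 2969 ± 565 in PKN2 KO vehicle, a 3.25-fold rise (adjusted p = 0.0047, limma). After TGF-β1 it had 14.9 ± 5.52 in WT and 411 ± 213 in PKN2 KO (SD, n = 3), so it was 24.8-fold higher in PKN2 KO (adjusted p = 4.5e-07, limma). Prelp fell with TGF-β1 in both genotypes, in which Gpc1 rose. Like Gpc1, Prelp is in the study's signature of PKN2 loss, so its difference between genotypes is no independent evidence either. Serpine2, a heparin-activated inhibitor of serine proteases, was 6.37-fold higher in PKN2 KO with vehicle (adjusted p = 0.0041, limma) and 4.65-fold higher after TGF-β1 (adjusted p = 0.011, limma), on 4 to 14 reads in WT with TGF-β1. Ccn2, a matricellular growth factor-binding protein, was 0.44-fold in PKN2 KO relative to WT after TGF-β1 (adjusted p = 0.0017, limma). Thbs1 (thrombospondin-1), which can activate latent TGF-β, was 0.54-fold in that comparison (adjusted p = 0.011, limma). Neither passed in vehicle. With TGF-β1 in WT, Ccn2 rose 2.43-fold and Thbs1 2.90-fold, and neither passed in PKN2 KO, where Thbs1 passed under the 4 other scalings. The log2 difference of Thbs1 with TGF-β1 in PKN2 KO was 0.49 ± 0.22 (SE). The interaction of Thbs1, -1.05 ± 0.32 (SE, log2), did not pass (adjusted p = 0.11, limma), so a different response between genotypes was not called in this fit. On the log2 scale the interaction passed for Ccn2 at -1.26 ± 0.31 (SE, adjusted p = 0.039, limma) and, in the opposite direction, for Prelp at 2.93 ± 0.50 (SE, adjusted p = 0.011, limma). Mmp9 also met the threshold (adjusted p = 0.026, limma). Its vehicle libraries were at 2 reads or fewer, so this is no result apart from its genotype difference after TGF-β1. The genotype differences of Prelp, Serpine2, Ccn2 and Thbs1 that passed kept their sign and stayed past the threshold under the 4 other scalings.

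**Figure D5:**
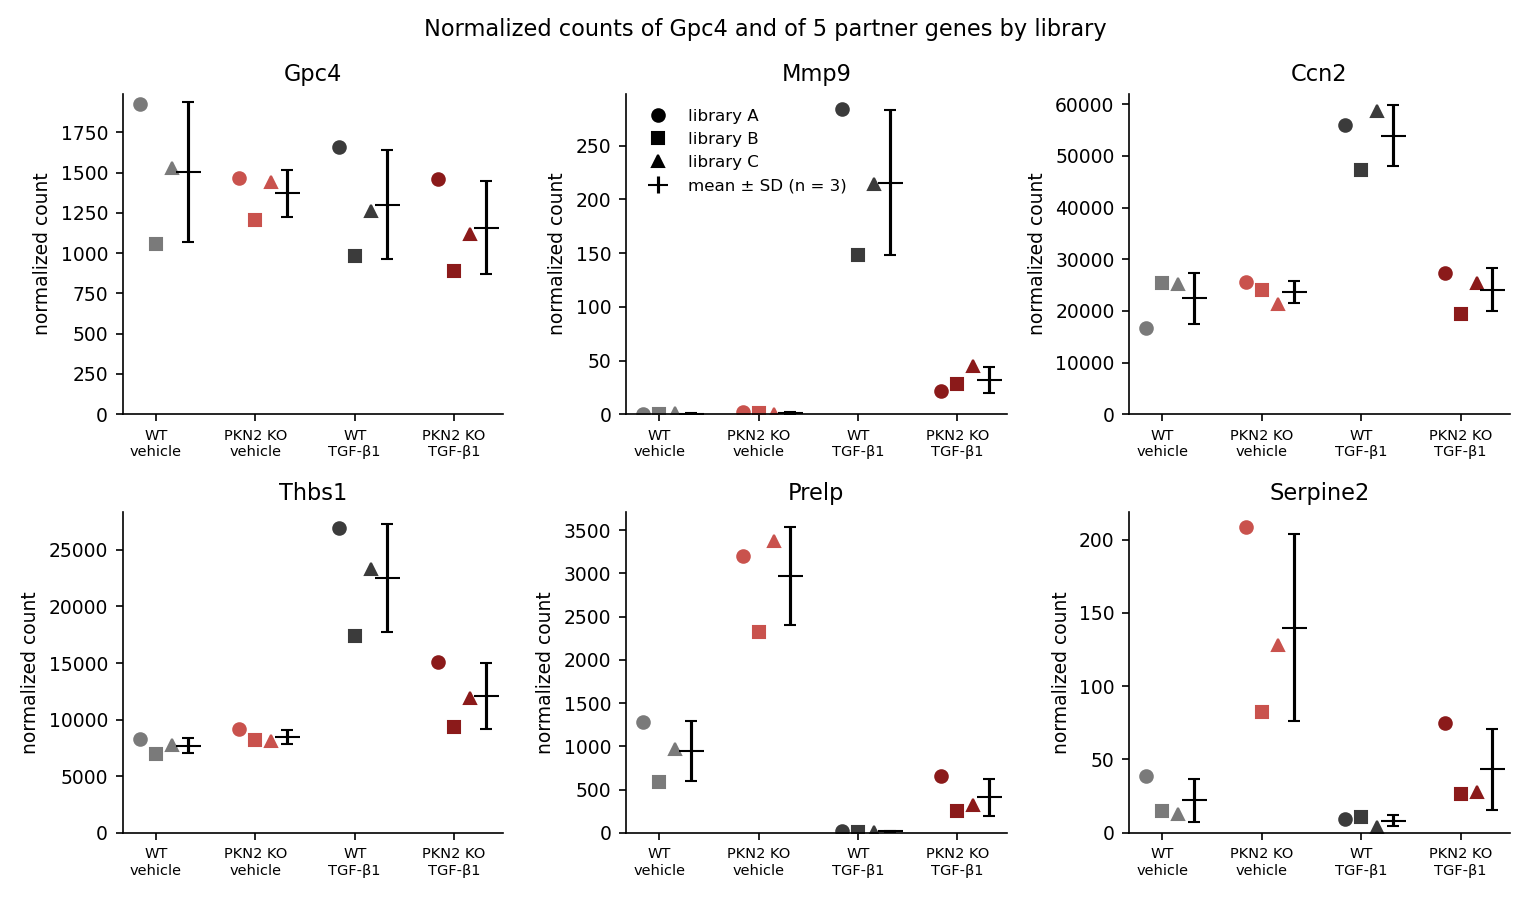
Normalized counts (vertical axes, from 0) of Gpc4 and of 5 genes for proteins that bind heparan sulfate or dock on CD44, by library and group, with the mean ± SD (n = 3). Prelp and Serpine2 are higher in PKN2 KO in both treatments, Mmp9, Ccn2 and Thbs1 are lower in PKN2 KO after TGF-β1, and the 4 groups of Gpc4 overlap.

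The 3 genes whose levels were most like those of Cd44 over the 12 libraries, by Pearson's r of log2(normalized count + 1), were Plod2 (r = 0.976), Itga5 (r = 0.975) and Col5a3 (r = 0.974). They encode a collagen lysyl hydroxylase, the α5 subunit of the fibronectin receptor and a chain of collagen V. Those most like Gpc1 were Itga7 (r = 0.970), Megf10 (r = 0.969) and Col6a3 (r = 0.937), which encode a laminin-binding integrin subunit, a receptor with EGF-like repeats and a chain of collagen VI. All 3 belong with Gpc1 to the signature that the study chose with these libraries, so their likeness to Gpc1 is not a separate result. Mean normalized counts of Itga7 in vehicle were 56.9 in WT and 177 in PKN2 KO, and with TGF-β1 they were 326 and 437, the same order as Gpc1. The r of Cd44 with Gpc1 was 0.771. The 12 points fall into 4 groups, and all genes of a library share its scaling factor, which can raise each r here. The r of the deviations from the group means was 0.759 for Plod2 with Cd44, 0.787 for Itga7 with Gpc1 and 0.428 for Cd44 with Gpc1.

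Several genes overlap Gpc1 in the annotation, among them the end of Ankmy1 and the antisense genes Gm29480 and Gm29481 on the opposite strand, and Mir149 on its own strand. Cd44 overlaps a small RNA gene, Gm23731, on the opposite strand. Where the panel's primers sit in either gene, and whether counting used strand, is not given in the sources used here.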

How the data were processed

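RNA from cultured PSCs was measured in 12 libraries with a targeted panel. The submitters' processing notes name STAR, mm10 and DESeq2 1.32. Deposited were raw counts and normalized counts, the latter a signal that the authors obtained by dividing each library by 1 factor from reference genes. The normalized counts came as separate sets for vehicle and for TGF-β1. Whether the factors of both sets share a common scale is not given in the sources used here. Every comparison of TGF-β1 with vehicle crosses the sets, and each genotype comparison stays within a set. The interactions are differences between those genotype differences. The other scalings do not use the authors' factors. In the raw table, 6 columns under a repeated name, that of PKN2 KO vehicle, were not used, and no column was named for WT with TGF-β1. The normalized counts of both groups therefore had no raw counts to be checked against. Dividing each normalized count by its step gave whole reads for 100% of values (tolerance 0.001). They equaled the raw counts in the 6 libraries that could be compared, those of WT vehicle and of PKN2 KO with TGF-β1. Every comparison includes a group without this check. The whole reads of all 12 libraries served for depth, ratios, other scalings and count tests.

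Genes that reached 10 normalized counts in 3 or more libraries, 238 in all, were fitted with limma 3.58.1 (R 4.3.3) on log2(normalized count + 1), with 1 mean per group, a trend and robust estimation. Tests were two-sided with Benjamini-Hochberg adjustment over all 238 genes and a threshold of 0.05. Fold changes are on this scale and understate those of low genes. Alternatives were count tests with edgeR 4.0.16 and DESeq2 1.42.0, 4 other scalings, other filters, pseudocounts and variance settings, the replicate letter as a block, and each library left out in turn. Named partners were those of each list that passed between genotypes, beside the list counts, and others are named to account for a count. The 3 genes most like each member were ranked by Pearson's r. The members, lists and rules were chosen with earlier results of these data known, and apart from the check of cell type markers, levels were not compared between genes because amplification differs by primer.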

Additional observations from a re-analysis of the deposited data

How the results depend on the processing

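Both rises of Cd44 and of Gpc1 with TGF-β1, and the rise of Gpc1 in PKN2 KO with vehicle, stayed past the threshold in the same direction under all alternatives run. The log2 difference of Cd44 between genotypes in vehicle turned to -0.15 with TMM, -0.20 with median-of-ratios factors over all genes, -0.027 with the total panel count and -0.13 with that total less its 10 most counted genes. Its interaction turned to 0.0057, 0.041 and 0.063 under the first, second and last of these. No value of Cd44 between genotypes passed. Gpc1 after TGF-β1 passed between genotypes at 0.45 with TMM, 0.56 with the total, 0.53 with it less those 10 genes, 0.57 with DESeq2, and 0.74 without the 4 B libraries (adjusted p = 0.016, limma), an alternative chosen after seeing the data. Its adjusted p over the alternatives set at the start, other than leaving out single libraries, ran from 0.0010 to 0.087, and the cause of the change was not tested.

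The mean correlation of deviations was 0.39 over 18 same-lettered pairs, from -0.23 to 0.70, so the letters were not taken to pair the samples. With the letter as a replicate block, Gpc1 after TGF-β1 passed at 0.57 (adjusted p = 0.0010, limma), and with the block and no trend also at 0.57 (adjusted p = 0.020). The block without a trend raised the genes called from 33 to 71 in vehicle and from 36 to 90 after TGF-β1 between genotypes. With the block and a trend, limma gave infinite prior degrees of freedom for 197 of 238 genes, so its calls were not relied on. The block changed no other call of Cd44 or Gpc1. Among the partner genes, the block without a trend raised the heparan sulfate-binding genes called between genotypes from 2 to 5 in vehicle and from 4 to 7 after TGF-β1. With it Hspg2 (adjusted p = 0.0040, limma), Col18a1 (adjusted p = 0.00095), Fn1 (adjusted p = 0.0048) and Vcan (adjusted p = 0.044) also passed in vehicle, and Col18a1 (adjusted p = 0.023) and Spp1 (adjusted p = 0.016) after TGF-β1. The interaction of Thbs1 (adjusted p = 0.015, limma) and its rise with TGF-β1 in PKN2 KO (adjusted p = 0.0091, limma) passed in that fit too.

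Leaving out 1 library gave ranges, without and with the block, of -0.025 to 0.080 and -0.067 to 0.18 for Cd44 between genotypes in vehicle, -0.16 to 0.12 and -0.13 to 0.072 after TGF-β1, and -0.19 to 0.082 and -0.21 to 0.036 for its interaction. That of the interaction turned without PKN2 KO TGF-β1 B (0.082). For Gpc1 between genotypes after TGF-β1 they were 0.47 to 0.68 and 0.49 to 0.72, with 1 of 6 past the threshold without the block, the fit without PKN2 KO TGF-β1 B. The fits with the block used a trend, so their calls were not relied on. Of 474 counts of genes called per list and comparison, 66 moved by over 1.5 times, most often with the block or total scalings. Gpc1 had fewer reads than Cd44 and more counting error, and Serpine2 and Mmp9 had fewer reads still. Scatter from counts covers counting error only.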
